A study of Homo sapiens with 6 samples.

Results

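The genes described here encode the subunits of the mitochondrial respiratory chain that are transcribed in the nucleus. They were chosen by symbol from the protein-coding genes of the deposited tables outside the mitochondrial genome. The symbols were those of the NDUF subunit series for complex I, SDHA to SDHD for complex II, the UQCR genes and CYC1 for complex III, the COX4 to COX8 genes for complex IV and the ATP5 genes for complex V. The rule found 89 genes among 58780 genes, of which 19969 are protein-coding, with 37 in complex I, 4 in complex II, 10 in complex III, 17 in complex IV and 21 in complex V. A symbol rule carries small misfits. NDUFA4 was counted with complex I by its name although it is known as a complex IV subunit, ATP5S is now named DMAC2L, ATP5MPL is ATP5MJ, ATP5MD is ATP5MK, ATP5IF1 is an inhibitor rather than a subunit, and ATP5MF-PTCD1 is a readthrough gene.

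RNA came from HCT116, an established human colorectal carcinoma line, in a study of chromatin around nuclear speckles. One group of 3 libraries was from cells given auxin for 16 h and the other group of 3 libraries was from cells given DMSO, the solvent, as the control. Auxin is a plant hormone used to trigger breakdown of degron-tagged proteins. The labels name neither the tagged protein nor the clone, so no check of a targeted gene was possible, and they call the libraries biological replicates 1 to 3 of each group without saying how the cultures were separated.

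The respiratory chain moves electrons from NADH, through complex I, and from succinate, through complex II, to coenzyme Q, then through complex III and cytochrome c to oxygen at complex IV. Complexes I, III and IV pump protons as they do so, and complex V, the ATP synthase, makes ATP as protons flow back. Complexes I, III, IV and V are built from both nuclear and mitochondrially encoded subunits, while complex II is nuclear-encoded throughout. The nuclear subunit genes are known targets of the transcription factors NRF1, the ETS factor GABP and YY1.

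Total expected counts per library, the estimated read numbers, ranged from 234037969 to 625895062, with replicate 1 the deepest of both groups. Replicate 1 of both groups stood apart from replicates 2 and 3 on the second principal component. Epithelial markers were abundant in all libraries, with EPCAM between 213.1 and 297.8 TPM (a level scaled per transcript length and library), whereas VIL1 and LGR5 of the same list were at or near 0. The defining immune genes PTPRC and CD3E were listed at 0 TPM in every library. The lysosomal gene CD68 of the same list was 39.5 to 65.7 TPM in DMSO and 10.7 to 19.1 TPM after auxin. The summed fibroblast, endothelial and muscle lists reached at most 2.78, 0.08 and 0.76 TPM.

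Auxin was followed by an uneven change across the respiratory chain genes. Of the 89 genes, 84 passed the filter on low counts and were tested with edgeR's quasi-likelihood test, adjusted over all 19725 genes tested. At an adjusted p under 0.05, 17 were higher and 20 were lower after auxin, or 20.2% and 23.8% of those tested. Over all genes tested, 25.4% were called higher and 26.9% lower, so the members were called at shares close to those of the other genes. The median log2 fold change of the 84 genes was 0.17, beside 0.02 for all genes tested. A value above 0 was found for 59 of the 84, beside 10134 of the 19725 genes tested. On log2(TPM + 1), a scale described below, 40 of the 84 were above 0.

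The falls were larger than the rises. A fall of 2-fold or more was called for 8 members and a rise of that size for 1, while over all genes tested such falls took 13.3% and such rises 6.55%. The members' log2 fold changes ran from -1.96 for UQCRC1 to 1.06 for ATP5S. CPM, that is counts scaled to depth by TMM factors, did not overlap between the groups for 41 of the 84 members, against 60.3% of all genes tested.

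**Figure D1:**
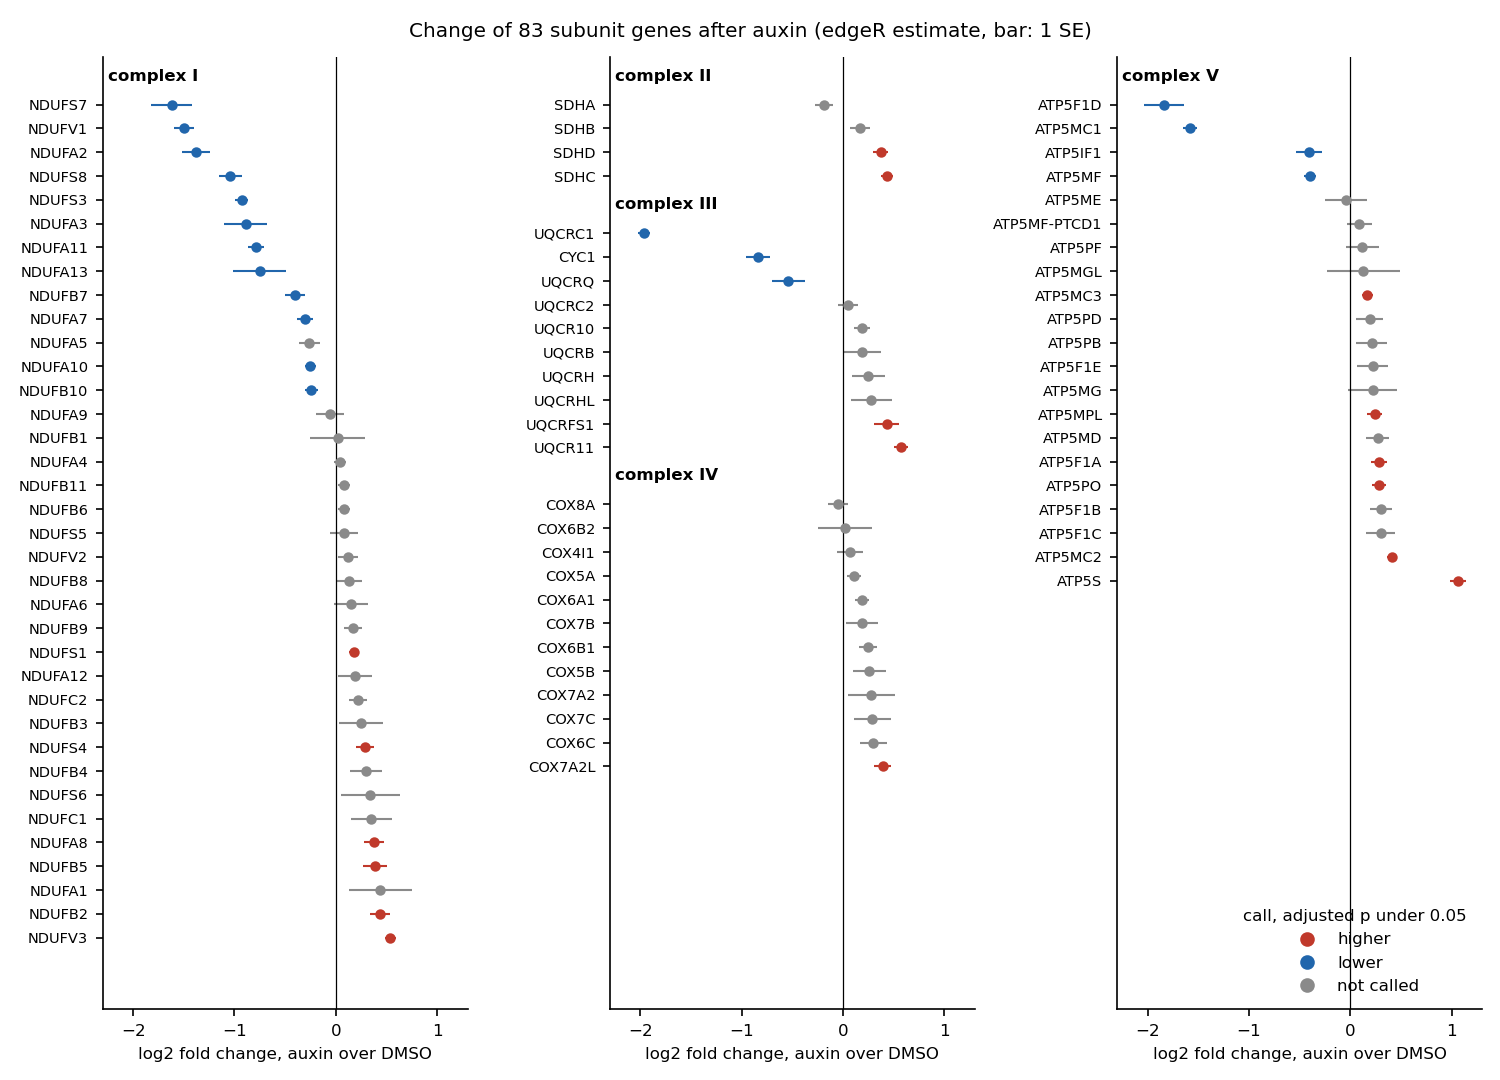
Log2 fold change of 83 of the 84 tested genes, auxin over DMSO, on the horizontal axis, with genes in rows grouped by complex and a bar of 1 standard error. Blue points were called lower, red points higher and grey points not called. The points to the left reach -1.96 at UQCRC1, and most of the remaining genes lie between 0 and 0.57, with ATP5S alone at 1.06. On the TPM scale none of the red points kept its call with a pseudocount of 1.

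The number called higher depended on the scaling and on the replicates. The replicate numbers were taken to pair the libraries across groups, although only replicate 1 stood apart by its correlations. With the replicate number as a block, 49 members were higher and 22 lower, with all 17 and all 20 of the earlier calls kept. Over all genes the same fit called 35.5% higher and 34.4% lower. On log2(TPM + 1) with limma, 0 members were higher and 16 were lower, with 4.92% and 15.0% of all genes. At an unadjusted p under 0.05 that limma fit had 3 members higher and 21 lower. The median of the members was -0.007 there. On log2(TPM + 0.1) 1 was higher and 17 lower, with 5.16% and 16.3% of all genes. Upper-quartile factors gave 34 higher and 15 lower, with 33.1% and 22.4% of all genes, and DESeq2 gave 18 and 20, with 26.0% and 27.6%. With replicates 2 and 3 only, 44 were higher and 22 lower, beside 30.2% and 31.8% of all genes. Leaving out auxin replicate 3 gave 8 higher and leaving out auxin replicate 1 gave 26, the lowest and highest of the 6 such fits, while 19.9% and 24.9% of all genes were higher. Without DMSO replicate 2 and auxin replicate 2 the counts were 11 and 9, beside 19.2% and 20.1% of all genes. Of the 20 members called lower, 9 were called lower in all 17 other settings tried, and of the 17 called higher none was. The count for the higher members was fixed by the log2(TPM + 1) fit, which called 0 members and only 4.92% of all genes higher. Single higher members kept their call in 6 to 16 of the settings, and lower members in 9 to 17. The share of all genes that kept a call in every setting was not counted.

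Replicate 1 was the lowest of its group in CPM in both groups for 67 of the 84 members. Its CPM was a median 83.3% of the mean of replicates 2 and 3 in DMSO and 86.3% after auxin. For members whose most abundant transcript is under 800 bases long, these medians were 78.4% and 84.1%. In TPM, which takes out the effective length, replicate 1 was the highest of its group in both groups for 42 members and the lowest for 12. What sets replicate 1 apart was not tested.

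Complex I, the NADH dehydrogenase, had 13 members lower and 6 higher of 37, beside 26.9% and 25.4% of all genes tested. The median log2 fold change of the complex was 0.08, which turned to -0.08 on log2(TPM + 1). With the replicate block 14 were lower and 17 higher, beside 34.4% and 35.5% of all genes. Of 6 core subunits of the matrix arm, namely NDUFV1, NDUFV2, NDUFS1, NDUFS3, NDUFS7 and NDUFS8, 4 were lower and 1 was higher, with a median of -0.99. Of 30 other genes, 8 were lower and 5 higher, with a median of 0.11, which is a description since genes of a complex are not replicates.

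NDUFS7, an iron-sulfur subunit next to the quinone site (GRCh38, chr19:1383527-1395589, plus strand), was at 8.93, 7.30 and 7.42 CPM in DMSO replicates 1 to 3 and at 3.34, 2.16 and 2.15 CPM after auxin. The auxin libraries were all well below the DMSO libraries. The log2 fold change was -1.62 ± 0.20 (SE, adjusted p = 4.51e-04), the largest fall in complex I. It was still called after a correction for GC content, at -0.75.

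NDUFV1, which binds NADH and the flavin (chr11:67605653-67612554, plus strand), was at 31.9, 36.2 and 36.2 CPM in DMSO and at 10.7, 13.3 and 13.0 CPM after auxin. Every auxin library was under 14 CPM and every DMSO library above 31. The log2 fold change was -1.50 ± 0.10 (SE, adjusted p = 3.37e-05). NDUFA2, an accessory subunit of the NADH-binding module and 1 of the least abundant of complex I at 9.82 ± 0.888 TPM in DMSO (SD, n = 3), was at 5.08, 6.35 and 5.98 CPM in DMSO and at 1.93, 2.32 and 2.47 CPM after auxin. Its log2 fold change was -1.38 ± 0.14 (SE, adjusted p = 1.89e-04). NDUFA2 overlaps TMCO6 on the opposite strand over 5982 bases, and TMCO6 had a mean of 4.05 CPM in DMSO and of 0.753 CPM after auxin. Whether counting used the strand is not given in the sources used here, so the reads of such pairs cannot be told apart with certainty.

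NDUFS8 and NDUFS3 also fell and were named after their values were seen. NDUFS8, an iron-sulfur subunit, had means of 25.9 ± 2.29 CPM in DMSO and of 12.5 ± 1.34 CPM after auxin (SD, n = 3). NDUFS3 had means of 43.1 ± 1.60 and 22.7 ± 0.288 CPM. The groups did not overlap for either gene, and the log2 fold changes were -1.04 and -0.93. With the GC correction NDUFS8 was at -0.28, not called without the replicate block (edgeR adjusted p = 0.292) and called lower with it (adjusted p = 1.89e-04), while NDUFS3 was at -0.80 and still called. NDUFS3 shares 8032 bases with PTPMT1 on its own strand, which had means of 37.5 and 42.1 CPM.

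NDUFS1, the largest subunit and a carrier of iron-sulfur clusters, went the other way. It was at 158.7, 163.1 and 168.6 CPM in DMSO and at 181.3, 189.5 and 186.2 CPM after auxin, with no overlap. Its log2 fold change was 0.18 ± 0.05 (SE, adjusted p = 0.0255), and it was -0.10 on log2(TPM + 1), so its direction depended on the scale. The call was lost without any DMSO library and without auxin replicate 2 or 3 (adjusted p = 0.0704 to 0.117). NDUFV2, the partner of NDUFV1, was not called, at 63.1 ± 6.52 and 68.4 ± 5.63 CPM (SD, n = 3), and with the replicate block it was higher (adjusted p = 0.00528).

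Among the accessory subunits that rose, NDUFV3, a small subunit bound to the flavoprotein part, was at 44.96, 46.3 and 46.7 CPM in DMSO and at 65.8, 66.0 and 68.5 CPM after auxin. The gap between the groups was wide against their spread, and the log2 fold change was 0.54 ± 0.05 (SE, adjusted p = 1.11e-04). NDUFB2, a membrane-arm subunit, was at 11.9, 13.9 and 14.2 CPM in DMSO and at 16.3, 18.7 and 19.4 CPM after auxin, or 0.44 ± 0.10 in log2 fold change (SE, adjusted p = 0.00915). NDUFB5, also of the membrane arm, was at 73.1, 92.8 and 90.5 CPM in DMSO and at 97.3, 120.7 and 118.8 CPM after auxin, or 0.39 ± 0.12 in log2 fold change (SE, adjusted p = 0.0278). Replicate 1 was the lowest of its group for each of these 3 genes, and none of the 3 was called on the TPM scale. The call of NDUFB5 was lost without DMSO replicate 1, auxin replicate 2 or auxin replicate 3 (adjusted p = 0.0595 to 0.0935). NDUFC2, 1 of the most abundant genes of complex I at 155.2 ± 50.5 TPM in DMSO and 154.8 ± 34.2 TPM after auxin (SD, n = 3), was not called (adjusted p = 0.0621). With the replicate block it was higher (adjusted p = 7.62e-05), and it was called without DMSO replicate 1 (adjusted p = 0.0153).

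Complex II, succinate dehydrogenase, is also an enzyme of the tricarboxylic acid cycle. Its membrane anchors SDHC and SDHD rose, and its catalytic subunits SDHA and SDHB were not called. SDHC was at 107.7, 117.5 and 117.4 CPM in DMSO and at 147.3, 156.5 and 157.2 CPM after auxin, and its log2 fold change was 0.43 ± 0.06 (SE, adjusted p = 9.86e-04). SDHD was at 99.8, 110.4 and 110.1 CPM in DMSO and at 130.5, 146.9 and 137.8 CPM after auxin, and its log2 fold change was 0.37 ± 0.07 (SE, adjusted p = 0.00353). For both anchors the lowest auxin library was above the highest DMSO library.

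SDHA, the flavoprotein, was at 60.9, 69.6 and 74.8 CPM in DMSO and at 55.5, 60.7 and 63.2 CPM after auxin, so the groups overlapped although every auxin library was below its DMSO partner. Its log2 fold change was -0.19 ± 0.09 (SE, adjusted p = 0.108), and with the replicate block it was called lower (adjusted p = 5.67e-04). Without DMSO replicate 1 it was also called, at -0.27 (adjusted p = 0.0315). SDHB, the iron-sulfur subunit, was at 65.6, 74.5 and 80.7 CPM in DMSO and at 74.1, 87.7 and 87.0 CPM after auxin. Its log2 fold change was 0.17 ± 0.10 (SE, adjusted p = 0.185), and with the block it was called higher (adjusted p = 0.00124). On log2(TPM + 1) SDHC and SDHD were at 0.17 and 0.22 and neither was called. In summed TPM the 4 genes were at 337.2 ± 45.6 in DMSO and 354.2 ± 23.1 after auxin (SD, n = 3).

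Complex III, the cytochrome bc1 complex, held the largest fall of all members. UQCRC1, a core subunit on the matrix side (chr3:48599002-48610976, minus strand), was at 42.9, 43.5 and 42.8 CPM in DMSO and at 11.5, 10.99 and 10.7 CPM after auxin. The replicates were close to each other in both groups, and auxin was at 25.7% of the DMSO mean. The log2 fold change was -1.96 ± 0.06 (SE, adjusted p = 1.99e-06), and it was -1.60 with the GC correction. UQCRC2, the partner core subunit, was not called, at 98.6 ± 11.9 and 102.2 ± 8.39 CPM (SD, n = 3).

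CYC1, the haem-bearing cytochrome c1, was at 86.4, 71.05 and 71.02 CPM in DMSO and at 49.2, 38.0 and 40.2 CPM after auxin. It is one of the few members with replicate 1 highest in both groups. Its log2 fold change was -0.84 ± 0.12 (SE, adjusted p = 9.71e-04), and it was -0.17 with the GC correction, still called lower (adjusted p = 0.0163). UQCRQ, a small membrane subunit, was at 27.1, 37.0 and 38.54 CPM in DMSO and at 19.4, 26.4 and 25.0 CPM after auxin, or -0.54 ± 0.16 in log2 fold change (SE, adjusted p = 0.0291). The highest auxin library of UQCRQ lay just under the lowest DMSO library. The call was lost without DMSO replicate 2 or 3 or auxin replicate 1 or 3 (adjusted p = 0.0536 to 0.0825).

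UQCRFS1, the Rieske iron-sulfur protein, was at 67.2, 79.8 and 87.0 CPM in DMSO and at 91.6, 111.1 and 111.8 CPM after auxin, or 0.43 ± 0.12 in log2 fold change (SE, adjusted p = 0.0186). UQCR11, the smallest subunit, was at 27.3, 30.5 and 31.2 CPM in DMSO and at 43.0, 44.4 and 44.9 CPM after auxin, or 0.57 ± 0.07 in log2 fold change (SE, adjusted p = 3.89e-04). Of the catalytic subunits of complex III, CYC1 was thus lower and UQCRFS1 higher, though the call of UQCRFS1 was lost without DMSO replicate 2 or auxin replicate 2 or 3 (adjusted p = 0.0555 to 0.0679). On log2(TPM + 1) UQCRFS1 and UQCR11 were at 0.26 and 0.37 and neither was called. UQCR11 shares 8274 bases of the same strand with AC005943.1, which had means of 5.08 CPM in DMSO and of 1.88 CPM after auxin.

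UQCRH, the hinge protein between cytochromes c1 and c, and its copy UQCRHL had similar log2 fold changes at different levels. UQCRH, the most abundant gene of complex III, was at 221.3 ± 8.49 TPM in DMSO and 238.1 ± 15.5 TPM after auxin (SD, n = 3). UQCRHL was at 1.87 to 1.97 TPM in DMSO and 1.93 to 2.43 TPM after auxin, the lowest of the complex. Neither was called (adjusted p = 0.223 and 0.267), and both were higher with the replicate block (adjusted p = 7.02e-05 and 0.0132). Reads of a near-identical copy can be split between both genes, so the values of UQCRHL are uncertain.

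Complex IV, cytochrome c oxidase, had 17 genes, of which 12 were tested. Of these 12, 1 was higher and 0 lower, beside 25.4% and 26.9% of all genes tested. The median of the 12 was 0.22 on the log2 scale, with a range from -0.05 to 0.39. At an unadjusted p under 0.05 edgeR had 3 higher and 0 lower, and DESeq2 called 1 higher and 0 lower after adjustment. With the replicate block 9 of the 12 were higher and 0 lower, beside 35.5% and 34.4% of all genes. On log2(TPM + 1) limma called 0 in either direction, also at an unadjusted p under 0.05, and the median was 0.07. That fit called 4.92% of all genes higher and 15.0% lower. In summed TPM the complex IV genes were at 2483 ± 169.8 in DMSO and 2590 ± 86.8 after auxin (SD, n = 3).

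Several complex IV subunits have a widely expressed form and a tissue form, and in these libraries the former carried nearly all reads. COX4I1 was at 105.1 ± 15.9 CPM in DMSO and at 110.6 ± 13.4 CPM after auxin (SD, n = 3), and COX4I2, the form of lung and hypoxic cells, was listed at 0 in every library. COX6A1 was at 157.1 ± 4.84 and 178.9 ± 12.7 CPM, and COX6A2, the heart and muscle form, was listed at 0 in every library. COX7B was at 23.8 ± 5.20 and 27.1 ± 2.44 CPM, and COX7B2 was listed at 0 in every library. None of these widely expressed genes was called (adjusted p = 0.678, 0.0555 and 0.379 for COX4I1, COX6A1 and COX7B). COX6A1 and COX7B were higher with the replicate block (adjusted p = 0.0015 and 0.0274), and COX6A1 was also higher without auxin replicate 1 (adjusted p = 0.0265).

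COX6B1 was at 97.2, 113.9 and 115.2 CPM in DMSO and at 118.4, 133.4 and 135.9 CPM after auxin, without overlap, and was not called (adjusted p = 0.0502), while it was without auxin replicate 1 (adjusted p = 0.0211). The testis form COX6B2 was between 0.0712 and 0.1004 CPM in all libraries, and it was not called (adjusted p = 0.963). COX8A was at 38.3 ± 4.19 CPM in DMSO and at 37.0 ± 2.80 CPM after auxin (SD, n = 3), with a log2 fold change of -0.05 that became 0.41 with the GC correction and replicate block. COX8C was at 0.00332 to 0.00368 CPM in DMSO and 0.0126 to 0.0232 CPM after auxin, too low to be tested, and it lies within UNC79 on the same strand, which had means of 0.0690 and 0.237 CPM.

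Among the COX7A genes, COX7A1, the heart and muscle form, had counts in replicate 1 of each group alone, at 0.00166 and 0.00155 CPM. COX7A2 was at 80.4, 129.2 and 123.8 CPM in DMSO and at 98.8, 150.1 and 155.1 CPM after auxin, so the spread within each group exceeded the gap between them. It was not called (adjusted p = 0.344) without the replicate block and was higher with it (adjusted p = 7.74e-05). COX7A2L, whose product joins complexes III and IV into supercomplexes, was at 51.8, 58.9 and 58.9 CPM in DMSO and at 69.5, 73.3 and 79.5 CPM after auxin. It was the only complex IV member called higher, at 0.39 ± 0.08 in log2 fold change (SE, adjusted p = 0.00435), and it was not called on the TPM scale. COX7C, 1 of the most abundant of complex IV at 429.3 ± 12.2 TPM in DMSO and 477.4 ± 20.2 TPM after auxin (SD, n = 3), was not called (adjusted p = 0.227), and was higher with the block (adjusted p = 3.50e-05).

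Complex V, the ATP synthase, had 6 members higher and 4 lower of 21, beside 25.4% and 26.9% of all genes tested. The median log2 fold change of the complex was 0.21. With the replicate block 14 were higher and 4 lower, beside 35.5% and 34.4% of all genes. On log2(TPM + 1) 0 were higher and 3 lower, beside 4.92% and 15.0% of all genes. Of the 5 genes of the F1 head and central stalk, ATP5F1A to ATP5F1E, 1 was higher and 1 lower. ATP5F1D, the delta subunit of the rotating central stalk (chr19:1241746-1244826, plus strand), was at 32.5, 22.6 and 23.2 CPM in DMSO and at 9.11, 6.34 and 6.40 CPM after auxin. Replicate 1 was the highest of both groups, and the groups lay far apart. The log2 fold change was -1.84 ± 0.20 (SE, adjusted p = 2.52e-04), and it was -0.85 with the GC correction.

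ATP5F1A, the alpha subunit, was at 291.1, 329.9 and 346.8 CPM in DMSO and at 368.4, 408.6 and 395.2 CPM after auxin, or 0.28 ± 0.08 in log2 fold change (SE, adjusted p = 0.0272). The call was lost without DMSO replicate 1 or 2 or auxin replicate 2 or 3 (adjusted p = 0.0782 to 0.0975). ATP5F1B, the catalytic beta subunit and the most abundant gene of complex V at 593.0 ± 104.3 TPM in DMSO and 656.6 ± 48.6 TPM after auxin (SD, n = 3), was not called, at 0.30 ± 0.11 in log2 fold change (SE, adjusted p = 0.0545). ATP5F1B was higher with the replicate block (adjusted p = 3.47e-05), as it was without auxin replicate 1 (adjusted p = 0.019). ATP5S, which encodes the factor B protein and also stood in the list of complex V assembly factors, was at 5.61, 5.62 and 5.26 CPM in DMSO and at 11.7, 11.4 and 11.3 CPM after auxin. It was the only member to rise 2-fold, at 1.06 ± 0.08 in log2 fold change (SE, adjusted p = 4.17e-05), and it was at 0.64 and not called on log2(TPM + 1). ATP5S overlaps CDKL1 on the opposite strand over 6155 bases, and CDKL1 had means of 6.25 CPM in DMSO and of 16.4 CPM after auxin.

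ATP5IF1, the inhibitor that blocks ATP hydrolysis by the enzyme, was at 25.5, 32.1 and 32.6 CPM in DMSO and at 19.6, 24.1 and 24.0 CPM after auxin. Its groups did not overlap, and its log2 fold change was -0.41 ± 0.13 (SE, adjusted p = 0.0278). The call was lost without DMSO replicate 2 or 3 or auxin replicate 1 or 3 (adjusted p = 0.0517 to 0.0793). ATP5MF, subunit f of the membrane part, was at 42.9, 46.5 and 44.0 CPM in DMSO and at 34.3, 32.7 and 33.8 CPM after auxin, or -0.40 ± 0.06 in log2 fold change (SE, adjusted p = 8.72e-04). It shares 17723 bases of the same strand with its readthrough gene ATP5MF-PTCD1, which was at 5.10 ± 0.502 and 5.42 ± 0.495 CPM (SD, n = 3) and was not called. ATP5MG, subunit g, was at 37.7 ± 10.9 CPM in DMSO and at 44.0 ± 8.79 CPM after auxin, while its copy ATP5MGL, the lowest of complex V, was between 0.0361 and 0.0758 CPM. Neither was called (adjusted p = 0.471 and 0.793), and ATP5MG was higher with the block (adjusted p = 0.0052).

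The ring of c subunits is encoded by 3 genes, ATP5MC1, ATP5MC2 and ATP5MC3, whose precursors differ in the import signal but give the same mature protein. These 3 genes did not move together. ATP5MC1 (chr17:48892765-48895871, plus strand) was at 32.7, 31.9 and 30.4 CPM in DMSO and at 11.4, 10.2 and 10.2 CPM after auxin, or -1.58 ± 0.07 in log2 fold change (SE, adjusted p = 6.79e-06). ATP5MC2 was at 48.3, 51.8 and 48.9 CPM in DMSO and at 64.4, 66.6 and 66.5 CPM after auxin, or 0.41 ± 0.05 in log2 fold change (SE, adjusted p = 5.75e-04), or 0.25 and not called on log2(TPM + 1). ATP5MC3 was at 92.8, 95.4 and 99.4 CPM in DMSO and at 105.4, 108.6 and 110.3 CPM after auxin, or 0.17 ± 0.05 in log2 fold change (SE, adjusted p = 0.0297), which was -0.03 on log2(TPM + 1). The call of ATP5MC3 was lost without any DMSO library and without auxin replicate 2 or 3 (adjusted p = 0.0679 to 0.13).

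By TPM, ATP5MC1 made up 25.5%, 28.2% and 27.5% of the summed level of the 3 genes in the DMSO libraries. After auxin its share was 8.13%, 8.90% and 9.38%. The sum of the 3 genes was 324.5 ± 62.0 TPM in DMSO and 277.1 ± 33.7 TPM after auxin (SD, n = 3). The sums of the groups overlapped, although the sum was lower after auxin in all 3 pairs, by log2 ratios of -0.33, -0.19 and -0.13. The shares of ATP5MC1 did not overlap.

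**Figure D2:**
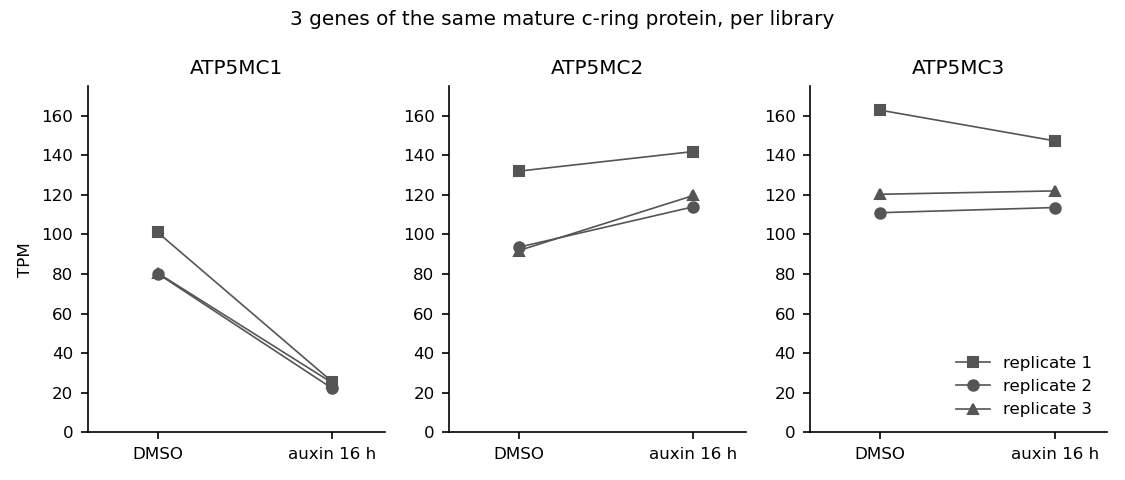
TPM of ATP5MC1, ATP5MC2 and ATP5MC3 in each library, with lines joining DMSO and auxin libraries of the same replicate number. ATP5MC1 goes from 80.2 TPM or more down to 22.2 to 25.6 TPM in all 3 pairs, whereas ATP5MC2 and ATP5MC3 stay above 90 TPM in every library.

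Across the complexes the members that stayed lower in all 17 other settings included UQCRC1, ATP5F1D, NDUFS7, ATP5MC1, NDUFV1, NDUFA2, NDUFS3 and CYC1. These 8 belong to complexes I, III and V, and none belongs to II or IV. Their levels in DMSO spanned 5.80 CPM for NDUFA2 to 76.2 CPM for CYC1, so the falls were not limited to weakly expressed genes.

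**Figure D3:**
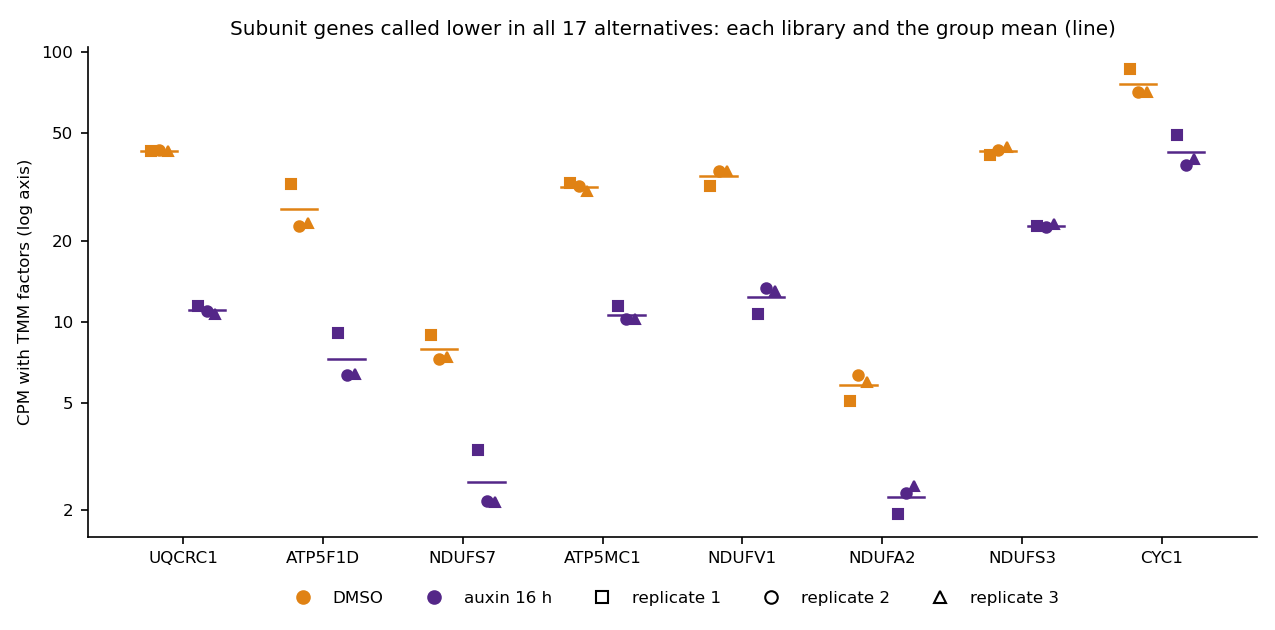
CPM on a log axis for 8 of the 9 members called lower in all 17 other settings, with orange symbols for DMSO, purple symbols for auxin, a symbol shape per replicate and a line at the group mean. In each gene the 3 auxin libraries lie below the 3 DMSO libraries, from means of 43.1 and 11.04 CPM for UQCRC1 to 76.2 and 42.5 CPM for CYC1.

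In summed TPM, complex I was at 2269 ± 185.7 in DMSO and 2023 ± 91.4 after auxin, and complex III was at 843.4 ± 53.1 and 763.3 ± 39.4 (SD, n = 3). Complex V was at 3257 ± 358.1 and 3252 ± 173.7. All 89 genes together were at 9190 ± 811.1 TPM in DMSO and 8982 ± 368.1 TPM after auxin, so the group means differed by less than the spread between libraries. By pairs the sums of complexes I and III were lower after auxin in all 3 replicates, while the total was lower in replicate 1 and slightly higher in replicates 2 and 3. The sums are dominated by abundant genes such as ATP5F1B and the COX genes, and the strongest falls were in genes of moderate level. In bulk RNA a change in the mix of cells and a change in RNA per cell cannot be told apart.

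The members' transcripts were examined next for changes in the makeup of a gene's RNA. A transcript's share is its TPM as a percentage of its gene's TPM. Of 680 annotated transcripts of the members, 15 from 8 genes had mean shares that differed by at least 10 percentage points between the groups, no overlap between the groups and a mean of at least 1 TPM. The 8 genes, chosen from these values and given with no test, included ATP5ME, ATP5MF, ATP5S, NDUFB10, NDUFS3, NDUFS4 and UQCRQ, of 82 members with at least 1 TPM. By the same measure 9.76% of these members moved, beside 20.02% of 11192 protein-coding genes with at least 1 TPM. In 5 of the 8 genes the moved transcripts differ by whether they hold a given exon or intron. Their lengths show that they also differ elsewhere, so the shares need not turn on that stretch alone. The stretches of 4 of these genes are shown because they mark the forms compared. They are from the GENCODE v29 transcripts on GRCh38, in the direction of the gene, with the exon or intron in capitals and up to 20 joined bases in lower case on each side.
ATP5ME exon, chr4:673912-673966, minus strand: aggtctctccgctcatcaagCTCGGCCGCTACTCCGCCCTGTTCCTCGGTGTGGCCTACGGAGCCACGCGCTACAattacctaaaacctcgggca
UQCRQ exon, coding part, chr5:132866882-132867035, plus strand: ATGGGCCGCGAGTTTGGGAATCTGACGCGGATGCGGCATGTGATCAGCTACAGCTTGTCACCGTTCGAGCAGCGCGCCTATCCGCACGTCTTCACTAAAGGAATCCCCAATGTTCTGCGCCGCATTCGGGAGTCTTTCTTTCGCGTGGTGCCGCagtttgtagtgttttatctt
NDUFS4 extra exon, chr5:53604724-53604895, plus strand: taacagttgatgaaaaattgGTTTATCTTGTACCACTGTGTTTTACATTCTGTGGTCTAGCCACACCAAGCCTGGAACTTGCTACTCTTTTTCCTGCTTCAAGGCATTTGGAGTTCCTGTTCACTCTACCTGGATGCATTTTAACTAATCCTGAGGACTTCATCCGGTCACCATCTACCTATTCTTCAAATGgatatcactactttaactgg
NDUFB10 second intron, chr16:1961292-1961496, plus strand: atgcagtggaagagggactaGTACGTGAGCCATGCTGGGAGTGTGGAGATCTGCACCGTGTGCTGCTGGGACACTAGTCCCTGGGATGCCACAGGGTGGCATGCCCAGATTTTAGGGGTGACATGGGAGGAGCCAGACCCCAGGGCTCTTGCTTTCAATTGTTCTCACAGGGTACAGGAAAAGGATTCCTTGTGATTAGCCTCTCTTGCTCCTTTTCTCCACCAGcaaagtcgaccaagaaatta
NDUFB10 last intron, its coding part in NDUFB10-202, chr16:1961637-1961731, plus strand: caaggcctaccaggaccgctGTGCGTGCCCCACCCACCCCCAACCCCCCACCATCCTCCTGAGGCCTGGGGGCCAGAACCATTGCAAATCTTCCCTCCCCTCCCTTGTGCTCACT

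ATP5ME encodes subunit e, which helps ATP synthase pair into dimers. Its exon of 55 bases, not a multiple of 3, is in ATP5ME-201, the coding transcript, and is missing from ATP5ME-202, which has no annotated coding sequence. The form with the exon made up 94.5%, 93.4% and 93.7% of the 2 forms in DMSO and 61.6%, 56.4% and 54.3% after auxin. The gene itself was not called, at 235.1 ± 13.2 TPM in DMSO and 236.5 ± 33.4 TPM after auxin (SD, n = 3, adjusted p = 0.902). ATP5ME-202 was at 12.3 to 15.6 TPM in DMSO and 76.3 to 122.0 TPM after auxin, and ATP5ME-201 at 206.9 to 231.0 and 122.5 to 144.9 TPM.

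For ATP5MF the exon is a multiple of 3 bases long, and both forms are annotated as coding. The form with the exon made up 77.1%, 80.2% and 79.0% in DMSO and 47.9%, 51.6% and 54.2% after auxin. So ATP5MF was lower both as a gene and in the share that keeps this exon. In UQCRQ the exon of 167 bases holds the start codon, and the transcript without it, UQCRQ-205, has no annotated coding sequence. The form with the exon made up 92.8%, 91.5% and 92.7% in DMSO and 75.5%, 73.8% and 69.1% after auxin.

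NDUFS4, an accessory subunit of the matrix arm, has a transcript with an extra exon of 172 bases that is annotated as a target of nonsense-mediated decay, the pathway that removes RNAs with an early stop. The form with the exon made up 27.6%, 23.2% and 25.0% in DMSO and 37.9%, 36.2% and 38.7% after auxin. It was at 13.4 to 19.2 TPM in DMSO and 22.9 to 26.8 TPM after auxin. The forms without the exon were together at 44.5 to 50.5 TPM in DMSO and lower, at 40.2 to 43.8 TPM, after auxin. As a gene NDUFS4 was called higher, at 0.29 on the log2 scale (adjusted p = 0.0345), and the call was lost without DMSO replicate 1 or 2 or auxin replicate 2 or 3 (adjusted p = 0.0609 to 0.112). It was 0.08 and not called on log2(TPM + 1).

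NDUFB10, an accessory subunit of the membrane arm, differed in 2 introns. The second intron, 205 bases long, was retained in 1.06%, 1.02% and 0.781% of the abundance in DMSO and in 17.7%, 17.2% and 17.4% after auxin. The last intron, 160 bases long, was retained in 42.9%, 36.4% and 33.4% in DMSO and in 82.3%, 73.9% and 74.2% after auxin. The fully spliced NDUFB10-201 was at 55.02 to 70.6 TPM in DMSO and at 13.4 to 15.9 TPM after auxin, although the gene's log2 fold change was -0.24 (adjusted p = 0.0178). That gene-level value was not called without auxin replicate 2 (adjusted p = 0.0583) and became 0.28 with the GC correction (adjusted p = 0.0221).

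**Figure D4:**
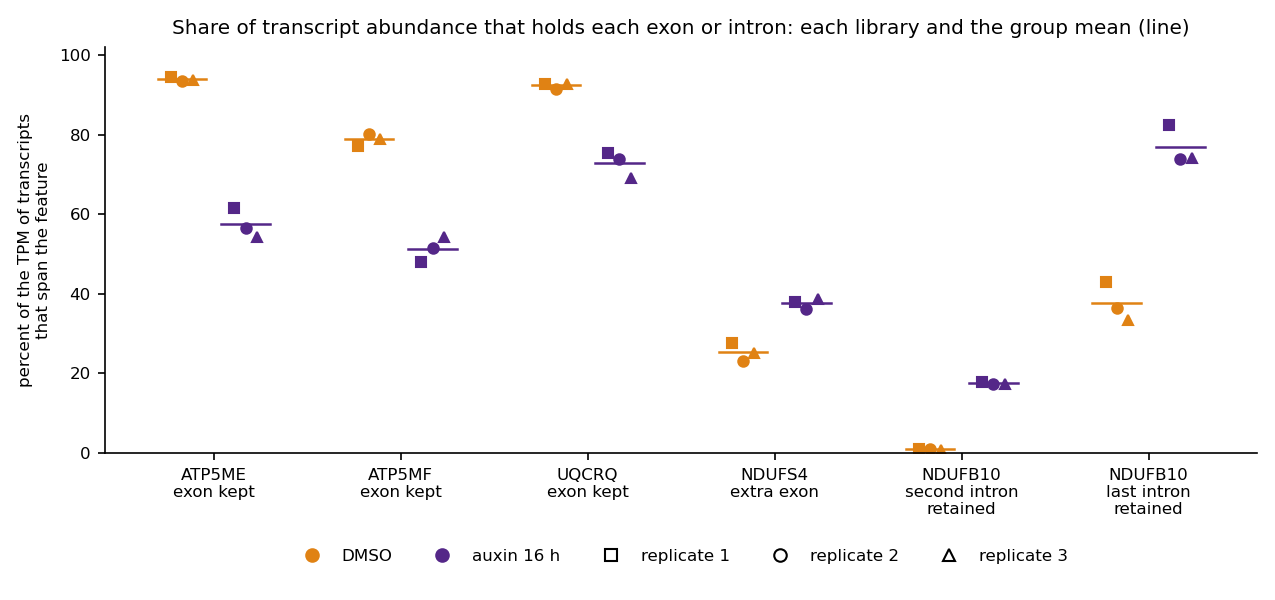
Percentage of the TPM of the transcripts that span each exon or intron which contains it, with orange symbols for DMSO, purple symbols for auxin, a symbol shape per replicate and a line at the group mean. The exons of ATP5ME, ATP5MF and UQCRQ are in a smaller share after auxin in all 3 replicates, and the NDUFS4 exon and both NDUFB10 introns are in a larger share.

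In ATP5S the transcript ATP5S-207 made up 59.0 ± 3.56% in DMSO and 72.2 ± 4.13% after auxin (SD, n = 3). NDUFS3-201, the coding form, was at 78.1 ± 4.399% and 66.0 ± 2.70%. Over all transcripts of the members, the protein-coding type took 79.8% to 80.4% of the TPM in DMSO and 78.4% to 78.8% after auxin. The processed transcript type took 13.0% to 13.4% and 14.6% to 15.4%. The retained-intron type took 2.59% to 3.45% in DMSO and 2.44% to 2.88% after auxin, so its share of all member TPM was not higher.

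Transcripts annotated as retained introns were present for 51 members. Their share of the gene was higher after auxin without overlap for 7 of these members, or 13.7%, and lower without overlap for 2. Of 7552 tested protein-coding genes with such transcripts, the share was higher in this way for 21.2%. All 7 members were among the 17 called lower that have such transcripts, or 41.2%, which was close to the 41.03% of all protein-coding genes called lower. They were NDUFS7, NDUFB10, CYC1, NDUFS3, NDUFA13, ATP5MC1 and NDUFA3. For NDUFS7 the share was 7.97%, 5.56% and 4.66% in DMSO and 27.5%, 12.02% and 20.7% after auxin, and for CYC1 it was 1.397%, 1.13% and 1.84% and then 4.25%, 4.51% and 6.84%. Of the 17 lower members with such transcripts the median share was 1.23% in DMSO and 2.96% after auxin, beside 1.10% and 1.12% for the 10 higher members. These counts were made after the values were seen.

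The members that fell had a higher GC content than the others. The median GC content of the most abundant transcript was 58.4% for the lower members, 47.5% for the higher and 47.2% for those not called. Across the 84 genes, which are not independent replicates, GC content and log2 fold change had a Pearson r of -0.56 and a Spearman rho of -0.45. Across 14145 protein-coding genes tested, these values were -0.40 and -0.35.

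Of the 19 members with a GC content of at least 55%, 12 were lower and 2 higher, beside 55.3% and 13.2% of all protein-coding genes in that range. Of the 22 members under 45%, 0 were lower and 5 higher, beside 21.4% and 34.2% of all protein-coding genes in that range. Among these 22 edgeR had 1 lower at an unadjusted p under 0.05 and DESeq2 called 0 lower. With offsets that take out each library's trend with GC, 13 members were lower and 15 higher, and over all genes 26.6% and 27.4%. UQCRC1, ATP5MC1 and NDUFA2 were at -1.60, -1.49 and -1.37 in that fit without the replicate block, beside -1.96, -1.58 and -1.38 uncorrected, while NDUFA11 and NDUFA13 were at -0.10 and -0.06 and no longer called. With the same offsets and the replicate block, 20 were lower and 41 higher, and over all genes 33.4% and 36.2%. In that fit NDUFA11 was called lower at -0.10 (adjusted p = 0.0323) and NDUFA13 was not called, at -0.05. The uncorrected call of NDUFA13 was also lost without DMSO replicate 2 or 3 or any auxin library (adjusted p = 0.0603 to 0.12). The part of GC content in these changes was not tested.

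**Figure D5:**
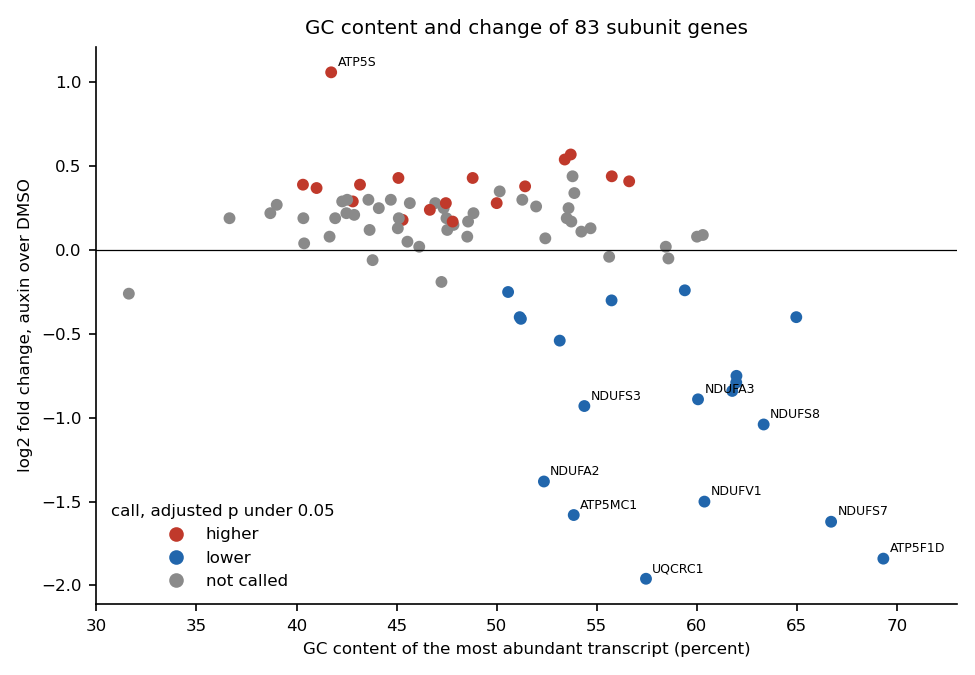
Log2 fold change against the GC content of the most abundant transcript, 1 point for each of 83 of the 84 tested genes, coloured by call. The lower members shown run from 50.6% to 69.3% GC, and the higher members from 40.3% to 56.6%. UQCRC1, ATP5MC1 and NDUFA2 are strongly lower at 52.4% to 57.5% GC.

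By position, 7 of the 11 tested members on chromosome 19 were lower and 2 higher, and of the 7 members on chromosome 11, 3 were lower and 1 higher. Of all genes tested, 42.03% were lower and 18.3% higher on chromosome 19, and 32.7% and 21.4% on chromosome 11. Chromosome 19 members included ATP5F1D, NDUFS7, NDUFA3, NDUFA7, NDUFA11, NDUFA13 and NDUFB7 among the lower, and UQCR11 and UQCRFS1 among the higher. With the GC correction alone ATP5F1D and NDUFS7 kept the call, and NDUFA3, NDUFA7, NDUFA11 and NDUFA13 lost it. NDUFB7 turned to 0.42 there and was not called (edgeR adjusted p = 0.112). With the block as well NDUFA3 and NDUFA11 were called lower again, and NDUFB7 was called higher, at 0.44 (edgeR adjusted p = 1.56e-04).

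Promoter windows of RefSeq (GRCh38.p14, 250 bases before to 50 after the start) were matched for 69 of the 89 genes. The NRF1 motif, sought on both strands, were in the windows of 17 of the 69 genes, or 24.6%, against 5.78% of all 35116 windows. The ETS letters CCGGAAG were in 21, or 30.4%, against 10.3%, and the YY1 letters AAGATGGCG in 9, or 13.0%, against 1.75%. A gene with several windows was counted once, which raises its chance of a match. The NRF1 motif was in 6 of 13 higher members, 3 of 16 lower members and 7 of 37 not called. In the same groups the ETS letters were in 4, 4 and 13, and the YY1 letters in 1, 3 and 5. A match of letters is a description and not a bound site.

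The regulators and partners of the chain held members called in both directions. The counts of each list stand beside 25.4% of all genes tested called higher and 26.9% called lower. Of 17 tested regulators of respiratory chain genes and mitochondrial DNA expression, 6 were higher and 3 lower, with a median log2 fold change of 0.12. POLRMT, the mitochondrial RNA polymerase, fell from 40.7 ± 7.73 to 5.35 ± 1.24 CPM (SD, n = 3), or -2.92 ± 0.20 in log2 fold change (SE, adjusted p = 3.44e-05). POLG, the mitochondrial DNA polymerase, fell from 34.6 ± 1.25 to 10.9 ± 2.73 CPM, with a log2 fold change of -1.67. TWNK, the mitochondrial helicase, and PPARGC1B, a coactivator, rose, with log2 fold changes of 0.92 and 0.84.

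All 13 mitochondrially encoded subunits had positive log2 fold changes, from 0.04 for MT-ND5 to 0.40 for MT-ND1, and 0 were called in either direction. Their summed level was 53161, 100246 and 71030 TPM in DMSO and 63965, 98354 and 84065 TPM after auxin, so the spread within a group was larger than the gap. At an unadjusted p under 0.05 edgeR had 0 of them in either direction, and DESeq2 called 0. The replicate block called 10 of the 13 higher and 0 lower, beside 35.5% and 34.4% of all genes. With the block and the GC correction together 5 were higher, beside 36.2% of all genes. The median of the 13 genes was 0.23. It was -0.1 without DMSO replicate 1, -0.01 without auxin replicate 2 and 0.59 without DMSO replicate 2. The median was 0.33 with the replicate block, 0.17 with the block and the GC correction together and 0.12 with replicates 2 and 3 only. The sign of the set thus depended on single libraries when 1 was left out without its partner. It stayed positive in these fits that kept the libraries of a pair together. POLRMT, lower in these libraries, transcribes these genes.

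Among 20 complex I assembly factors, 6 were higher and 6 lower, or 30% each, close to the 25.4% and 26.9% of all genes tested. The median of the list was 0.16. FOXRED1 fell from 8.09 ± 0.915 to 0.629 ± 0.0559 CPM (SD, n = 3), or -3.68 ± 0.14 in log2 fold change (SE, adjusted p = 3.16e-06), and NDUFAF3 had a log2 fold change of -1.67. DMAC1 and NDUFAF4 rose, with log2 fold changes of 1.01 and 0.74. The assembly factors of complex I were thus called in both directions, as were the core subunits described above.

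Of 11 assembly factors of complexes II and III, 7 were higher and 2 lower, with a median of 0.39. Over all genes tested, 25.4% were higher and 26.9% lower. UQCC1 and SDHAF4 rose by 0.98 and 0.97 on the log2 scale, and TTC19 and UQCC3 had log2 fold changes of -0.92 and -0.41. Of 26 complex IV assembly factors, 12 were higher and 4 lower, with a median of 0.34, and COA7 and COX18 rose by 0.89 and 0.76 on the log2 scale, while SURF1 and PET100 were at -1.20 and -1.16. Of 7 complex V factors, 2 were higher, ATP5S and TMEM242 (1.06 and 0.72), and 1 was lower, ATPAF2 (-1.05). The call of PET100 was lost without DMSO replicate 2, with an adjusted p of 0.0522.

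The tricarboxylic acid cycle feeds electrons to the chain. The list held 17 genes of the cycle and of the entry of pyruvate (PDHA1, PDHB, DLAT and PC). Of these 17, 0 were higher and 6 lower, beside 25.4% and 26.9% of all genes tested. DLAT and PC of the pyruvate genes were among the 6. The median of the 17 was -0.06. At an unadjusted p under 0.05 edgeR had 2 of the 17 higher, DESeq2 called 1 higher, and 4 were higher with the replicate block. That block fit called 35.5% of all genes higher. IDH3B, a subunit of isocitrate dehydrogenase, fell from 43.9 ± 5.12 to 10.6 ± 0.244 CPM (SD, n = 3), or -2.05 ± 0.10 in log2 fold change (SE, adjusted p = 6.79e-06). PC, pyruvate carboxylase, had a log2 fold change of -1.78. Of 20 genes of coenzyme Q synthesis, cytochrome c and other electron entries, 6 were higher and 4 lower, with a median of 0.13. COQ7 and COQ5 rose by 0.75 and 0.67 on the log2 scale, and COQ4 and COQ8B were at -1.17 and -0.74.

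These list counts also moved with the setting. With the replicate block 10 of 20 complex I factors and 19 of 26 complex IV factors were called higher. So were 10 of 17 regulators and 10 of 20 genes of the coenzyme Q and cytochrome c list, beside 35.5% of all genes. In the same order 8, 4, 5 and 5 were lower, beside 34.4% of all genes. On log2(TPM + 1) the numbers higher and lower were 1 and 4 for the complex I factors, 2 and 1 for the factors of complexes II and III, and 1 and 3 for the complex IV factors. They were 0 and 1 for the complex V factors, 2 and 3 for the regulators and 0 and 2 for the coenzyme Q and cytochrome c list. For the list of the tricarboxylic acid cycle and pyruvate entry they were 0 and 7. Over all genes 4.92% were higher and 15.0% lower on that scale. NDUFAF4, SDHAF4, UQCC3, COX18, TMEM242, COQ5, COQ7, COQ8B and PPARGC1B were among the genes named here that lost their call on that scale.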

How the data were processed

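RNA was sequenced from 6 HCT116 libraries, 3 per group. Per the labels' protocols, RNA had an integrity number of 10, ribosomal RNA was depleted, and a stranded kit was used before paired-end sequencing. The submitters' processing notes name bcl2fastq 2.20, STAR, DESeq2 and GRCh38/hg38 without roles. Per the file headers, the tables deposited by the authors hold the expected count per gene and transcript, not normalized, the TPM, the effective length and the posterior standard deviation of each count, in the layout of RSEM. The annotation and strand use of counting are not given in the sources used here. All gene IDs were found in GENCODE v29, from which coordinates and transcript types were taken.

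Expected counts were rounded and tested with edgeR 4.0.16 in R 4.3.3 (filterByExpr, TMM factors, glmQLFit, glmQLFTest, two-sided), with Benjamini-Hochberg adjustment over all genes and a threshold of 0.05. The script was tested on 3 simulated tables with 200 changed genes each. It called 52.3% of the 2-fold changes and 26.7% of the 1.5-fold changes. Of all its calls there, 9.18% were of unchanged genes. Those tables had 200 changed genes of 19725, while 5010 genes were called higher and 5311 lower in the data. The adjustment depends on how many genes change, so these rates do not carry over to the fit of the data. A gene that was not called may still have changed. Other settings were upper-quartile factors, library size alone, DESeq2 1.42.0, other filters (none, or at least 10 counts in every library), limma 3.58.1 on log2(TPM + 1) and log2(TPM + 0.1), the replicate block, leaving out libraries and, added after the data were seen, offsets corrected for GC content. IDs that name no gene took 0.000255% to 0.00111% of counts and were left out. The deviations of libraries with the same number correlated at 0.651, 0.265 and 0.276. DMSO replicate 3 correlated with auxin replicate 2 at 0.312, and DMSO replicate 2 with auxin replicate 3 at 0.18. The correlations set replicate 1 apart but do not tell replicates 2 and 3 from each other. The numbers, which come from the labels, were taken to pair the libraries. P-values measure the spread between these libraries, which may be partly technical.

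Members and gene lists were chosen with earlier results of these data known, and no test was made over a list. Named in full were the 3 called members with the largest change in each direction in each complex, complex II, the paralog groups, the catalytic cores, ATP5IF1, the members of highest and lowest TPM of each complex, and from each list the 2 called genes with the largest change in each direction. The posterior standard deviation of a member's count was at most 1.48% of the count, except 4.68% for ATP5MF-PTCD1. Some items are not reported here, though counts over all members include them.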

Additional observations from a re-analysis of the deposited data

How the results depend on the processing

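The count of 17 higher members was 34 with upper-quartile factors, 49 with the replicate block, 44 with replicates 2 and 3 only, 0 on log2(TPM + 1), 1 on log2(TPM + 0.1), 41 with the GC correction and replicate block together, and between 8 and 26 when a library was left out. The highest of these was without auxin replicate 1. Without DMSO replicate 2, auxin replicate 2 or auxin replicate 3 it was 11, 9 and 8. The count of 20 lower members was 13 with the GC correction, and between 16 and 22 when a library was left out. The median log2 fold change of 0.17 was 0.29 with upper-quartile factors, 0.08 with library size alone, -0.007 and -0.023 on log2(TPM + 1) and log2(TPM + 0.1), 0.09 with the GC correction, 0.10 with that correction and the block, and between 0.06 and 0.24 when a library was left out. The median of all genes moved by 0.12 with upper-quartile factors and by -0.12 on log2(TPM + 0.1). The cause of these differences was not tested. Of 48 named members that were tested, 627 of 815 values under another setting kept direction and call, 84 lost the call and 53 gained one. In 42 values of 9 members the sign turned without a call in either fit, at 0.40 or less in size. Direction turned with a call in at least 1 of the fits for NDUFS1 (-0.10 on both TPM scales), ATP5MC3 (-0.03 on both), NDUFB10 (0.28 with the GC correction, alone or with the block) and, with the GC correction and block together, COX8A (0.41), ATP5ME (0.17) and UQCRC2 (-0.11). NDUFB7, not among these 48 members, turned with the GC correction as given with chromosome 19. Apart from the block values given with the results, the block ended no call of a named member. At these depths the lowest tested members, ATP5MGL and COX6B2, had as few as 8.01 and 20.9 counts in a library.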
